A study of Mus musculus with 6 samples.

Results

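The genes described here are Hdc, which makes histamine, Hnmt, which breaks it down, and Hrh1 and Hrh2, which encode receptors for it. They were taken by gene symbol from the deposited table, which holds 22298 genes, and all 4 symbols were found in it. Hdc was chosen by its small p-value in the very comparison of these groups, and the other 3 as its partners, so the differences of the 4 genes are given as descriptions without a test. Of the 4 genes, 3 passed the filter on low counts that left 13096 genes for testing, and Hrh1 did not. The data are poly(A)-selected RNA sequencing of wild-type mouse liver sinusoidal endothelial cells, the perforated lining of the liver's capillaries, in 6 libraries. The group labelled aging holds replicates 2, 3 and 5, and the group labelled control holds replicates 1, 2 and 3. The study's design set mice of 24 months against mice of 8 weeks, but the age field gives 8 weeks to the libraries labelled aging and 24 months to those labelled control. The age of either group is therefore unsettled, and higher or lower always means in the libraries labelled aging, set against those labelled control. No label ties a library to a separate mouse, so p-values measure only the spread between these libraries.

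Histamine is an amine made in a single step from the amino acid histidine by histidine decarboxylase, the product of Hdc. It is best known from mast cells and basophils, which store it in granules, and mouse myeloid cells also express Hdc. Cells that respond to it carry G protein-coupled receptors; on endothelium the H1 receptor is known for raising vascular permeability. Inside cells, histamine is inactivated by histamine N-methyltransferase, the product of Hnmt.

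Library totals ran from 15999220 to 17871220 counts. The 8 markers of sinusoidal endothelium summed to 20600 to 23800 CPM (counts scaled to library size with TMM factors) in the libraries labelled aging, against 20000 to 25200 CPM in the libraries labelled control. The scavenger receptor Stab2 averaged 4700 ± 276 CPM in the libraries labelled aging and 5810 ± 862 CPM in those labelled control (SD, n = 3 each), and the mannose receptor Mrc1 averaged 3660 ± 412 CPM in aging and 3940 ± 421 CPM in control libraries. Lyve1, a hyaluronan receptor named after its values were seen, had 244, 67.7 and 462 CPM in aging replicates 2, 3 and 5, against 551, 629 and 662 CPM in control replicates 1, 2 and 3, and the groups did not overlap (log2 fold change -1.25 ± 0.60, SE; edgeR adjusted p = 0.207). In edgeR none of the 8 passed an adjusted p under 0.05, with 4 at an unadjusted p under 0.05; DESeq2 called 0 and limma 1. None of 8 pan-endothelial markers passed in edgeR, DESeq2 or limma, with 0, 1 and 2 at an unadjusted p under 0.05; the phosphatase Ptprb stood at 7880 ± 350 CPM in aging and 8550 ± 1090 CPM in control libraries and Kdr, a VEGF receptor, at 4190 ± 45.0 CPM in aging and 4830 ± 355 CPM in control libraries (SD, n = 3 each). In bulk RNA, a change in the number of cells that carry a transcript and a change in the transcript per cell cannot be told apart.

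The reference promoters of Hdc, Hnmt and Hrh2 are shown because these 3 members passed the count filter and so have a fold change beside them. Each runs from 250 bases before to 50 bases after the annotated start, read 5′ to 3′ on the gene's strand, from RefSeq on GRCm38.p6; capitals mark GGGCGG, the GC box bound by Sp1. The Hdc window lies at chr2:126618629-126618928 on the minus strand, the Hnmt window at chr2:24049330-24049629 on the minus strand, and the Hrh2 window, the first of 2 listed starts, at chr13:54191883-54192182 on the plus strand.
Hdc promoter: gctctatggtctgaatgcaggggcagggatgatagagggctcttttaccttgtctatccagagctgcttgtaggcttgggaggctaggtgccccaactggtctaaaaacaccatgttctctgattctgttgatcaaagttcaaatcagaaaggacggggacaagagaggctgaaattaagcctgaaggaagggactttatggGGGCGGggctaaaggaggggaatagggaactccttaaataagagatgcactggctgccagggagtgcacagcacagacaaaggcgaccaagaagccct
Hnmt promoter: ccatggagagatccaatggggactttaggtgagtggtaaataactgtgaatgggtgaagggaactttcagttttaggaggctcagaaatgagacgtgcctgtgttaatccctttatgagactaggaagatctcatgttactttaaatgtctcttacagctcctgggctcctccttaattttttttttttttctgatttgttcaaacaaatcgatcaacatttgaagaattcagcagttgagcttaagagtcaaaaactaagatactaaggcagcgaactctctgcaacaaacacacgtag
Hrh2 promoter: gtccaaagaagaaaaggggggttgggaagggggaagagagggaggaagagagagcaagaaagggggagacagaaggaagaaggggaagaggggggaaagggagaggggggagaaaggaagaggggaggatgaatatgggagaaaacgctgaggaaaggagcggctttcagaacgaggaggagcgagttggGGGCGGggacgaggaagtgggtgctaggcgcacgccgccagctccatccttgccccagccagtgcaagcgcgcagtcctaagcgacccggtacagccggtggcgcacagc
Motifs of 4 factors, chosen after the values had been seen, were searched on both strands: GATAA (Gata2), GGGCGG (Sp1), CACCC (Klf4) and CATGTG (Mitf). The Hdc window held 1 GGGCGG, 48 bases before the start, and no match to the other motifs. The Hrh2 window held 1 GGGCGG, 60 bases before the start, and 1 CACCC on the opposite strand, 42 bases before it. The Hnmt window held only 1 CACCC, on the opposite strand. No 2 matches overlapped. Over all 32851 promoter windows of this length, GGGCGG was in 35.7%, CACCC in 57.5%, GATAA in 25.4% and CATGTG in 14.2%, and a match is a description, not a site.

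Hdc (ENSMUSG00000027360) was an abundant transcript with little spread inside either group. It stood at 610, 502 and 544 CPM in aging replicates 2, 3 and 5, against 173, 192 and 155 CPM in control replicates 1, 2 and 3. The groups did not overlap, and the lowest library labelled aging was 2.61 times the highest library labelled control. These values rest on 8503 to 10592 counts per library labelled aging and 2462 to 3421 per library labelled control. The means were 552 ± 54.1 CPM in aging and 173 ± 18.7 CPM in control libraries (SD, n = 3 each), a log2 fold change of 1.67 ± 0.12 (SE). On the authors' length-scaled FPKM the means were 228 ± 23.2 in the libraries labelled aging and 73.4 ± 8.20 in those labelled control (SD, n = 3 each), which put Hdc at rank 222 in aging and rank 865 in control libraries of the 22298 genes. Without any single library the log2 fold change of Hdc lay between 1.60 and 1.75.

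Hnmt (ENSMUSG00000026986) was far less abundant than Hdc. It had 7.54, 3.07 and 2.33 CPM in aging replicates 2, 3 and 5, against 1.73, 1.18 and 0.881 CPM in control replicates 1, 2 and 3. The groups did not overlap, but aging replicate 2 stood well above the other libraries of its group. The counts behind these values were 131, 52 and 40 in the libraries labelled aging and 29, 21 and 14 in those labelled control. The means were 4.31 ± 2.82 CPM in aging and 1.26 ± 0.429 CPM in control libraries (SD, n = 3 each), a log2 fold change of 1.76 ± 0.51 (SE). It was 1.09 without aging replicate 2, a fall of the estimate by more than 1.5 times. In FPKM, Hnmt averaged 3.44 ± 2.60 in aging and 0.943 ± 0.241 in control libraries (SD, n = 3 each).

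Hrh2 (ENSMUSG00000034987) encodes the H2 receptor, which couples to Gs and raises cyclic AMP. It had 12.2, 3.96 and 2.21 CPM in aging replicates 2, 3 and 5, against 2.92, 1.24 and 0.567 CPM in control replicates 1, 2 and 3. The groups overlapped, since control replicate 1 stood above aging replicate 5. The means were 6.12 ± 5.34 CPM in aging and 1.57 ± 1.21 CPM in control libraries (SD, n = 3 each), a log2 fold change of 1.95 ± 0.79 (SE). The log2 fold change was 0.96 without aging replicate 2 and ranged up to 2.75 without control replicate 1.

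Hrh1 (ENSMUSG00000053004) encodes the H1 receptor, which couples to Gq and calcium release. It had 18, 4 and 9 counts in aging replicates 2, 3 and 5, against 6, 1 and 6 counts in control replicates 1, 2 and 3. The groups overlapped. In CPM it stood at 1.04, 0.236 and 0.523 in the same libraries labelled aging, against 0.358, 0.0562 and 0.378 in those labelled control. Aging replicate 2 stood highest, with an exact 95% binomial interval of 0.614 to 1.64 CPM, which overlapped those of control replicates 1 (0.131 to 0.778 CPM) and 3 (0.139 to 0.822 CPM) and lay above that of control replicate 2 (0.00142 to 0.313 CPM). The intervals of aging replicates 3 (0.0644 to 0.605 CPM) and 5 (0.239 to 0.994 CPM) overlapped those of all 3 control replicates. Such intervals cover counting error only, and Hrh1 was not tested.

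**Figure D1:**
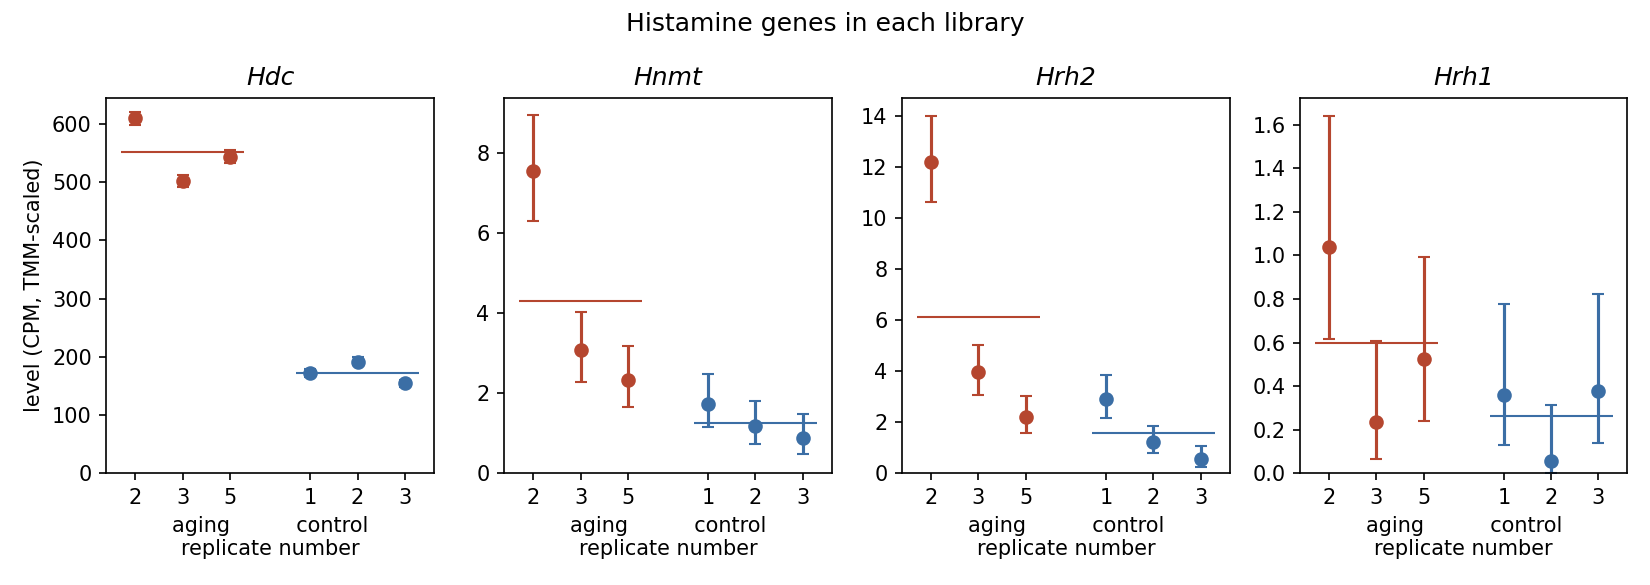
Levels of Hdc, Hnmt, Hrh2 and Hrh1 in each library, in TMM-scaled CPM on a linear axis from 0, with aging libraries left and control libraries right. Points carry exact 95% binomial intervals of the counts, and lines mark group means; Hdc lies between 502 and 610 CPM in the aging libraries and between 155 and 192 CPM in the control libraries, while Hnmt and Hrh2 peak in aging replicate 2.

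By length-scaled level (FPKM), the order within both groups was Hdc, Hnmt, Hrh2 and Hrh1. Hrh2 averaged 1.65 ± 1.44 FPKM in the libraries labelled aging and 0.447 ± 0.379 FPKM in those labelled control, and Hrh1 averaged 0.210 ± 0.147 FPKM in aging and 0.0933 ± 0.0635 FPKM in control libraries (SD, n = 3 each). Hnmt and Hrh2 stood next to each other in this order. Their group spreads overlapped in the libraries labelled aging, but Hnmt stood above Hrh2 in FPKM within every library. In aging replicates 2, 3 and 5 Hnmt had 6.43, 2.17 and 1.73 FPKM, against 3.3, 1.06 and 0.6 FPKM for Hrh2. In control replicates 1, 2 and 3 Hnmt had 1.17, 0.97 and 0.69 FPKM, against 0.87, 0.33 and 0.14 FPKM for Hrh2. Of the 3 members tested, 1 passed an adjusted p under 0.05 in edgeR, 3 in DESeq2 and 1 in limma, where edgeR called 12.8% of all tested genes, 7.22% higher and 5.59% lower; nothing is read from these counts, as the members were chosen with the contrast known. The groups did not overlap for 2 of the 3 tested members, both higher, against 38.0% of all tested genes in either direction and 19.2% higher.

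The order of the libraries was next compared with that of S100a8 and S100a9, the calprotectin subunits that are abundant in neutrophils. S100a8 stood at 788, 289 and 287 CPM in aging replicates 2, 3 and 5, against 71.6, 68.3 and 30.2 CPM in control replicates 1, 2 and 3. S100a9 stood at 1550, 611 and 600 CPM in the libraries labelled aging, against 165, 149 and 72.6 CPM in those labelled control. Both genes ranked the libraries as aging replicates 2, 3 and 5, then control replicates 1, 2 and 3. The steps between aging replicates 3 and 5 were within counting error for both genes, and for S100a8 so was that between control replicates 1 and 2.

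Hdc gave another order: aging replicates 2, 5 and 3, then control replicates 2, 1 and 3. Both exchanges were beyond counting error for Hdc, at 544 CPM (95% interval 533 to 555) in aging replicate 5 and 502 CPM (492 to 513) in aging replicate 3, and at 192 CPM (186 to 199) in control replicate 2 and 173 CPM (166 to 179) in control replicate 1. Hnmt ranked all 6 libraries as S100a8 and S100a9 did, but only its step from aging replicate 2 to aging replicate 3 was beyond counting error; the intervals of every other pair of neighbours in its order overlapped. Hrh2 kept that order inside each group, with control replicate 1 placed above aging replicate 5. That exchange was within counting error (2.16 to 3.86 CPM in control replicate 1 and 1.56 to 3.03 CPM in aging replicate 5). With 3 libraries a group, an order is a description and no test was made of it.

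The size of the spread also differed. Within the libraries labelled aging the highest level was 1.21 times the lowest for Hdc, 3.24 times for Hnmt, 5.52 times for Hrh2, 2.75 times for S100a8 and 2.59 times for S100a9. Within the libraries labelled control it was 1.24 times for Hdc, 1.96 times for Hnmt, 5.15 times for Hrh2, 2.37 times for S100a8 and 2.28 times for S100a9. By these ratios, which include counting error, Hdc was the least variable of these 5 genes in both groups. For Hnmt the intervals of control replicates 1 (1.16 to 2.48 CPM) and 3 (0.482 to 1.48 CPM) overlapped, so its control spread was within counting error. For Hrh2 those intervals, at 2.16 to 3.86 CPM and 0.259 to 1.08 CPM, did not overlap. For each S100a8 count there were 0.773, 1.74 and 1.90 Hdc counts in aging replicates 2, 3 and 5, against 2.41, 2.82 and 5.14 Hdc counts in control replicates 1, 2 and 3. The ratio of Hnmt to S100a8 counts was steadier than that of Hdc. It ran from 0.0081 to 0.0106 in the libraries labelled aging and from 0.0173 to 0.0292 in those labelled control. The ratio of Hrh2 to S100a8 counts ran from 0.0077 to 0.0155 and from 0.0181 to 0.0408. These ratios include counting error, with 14 to 131 Hnmt counts and 9 to 212 Hrh2 counts per library.

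**Figure D2:**
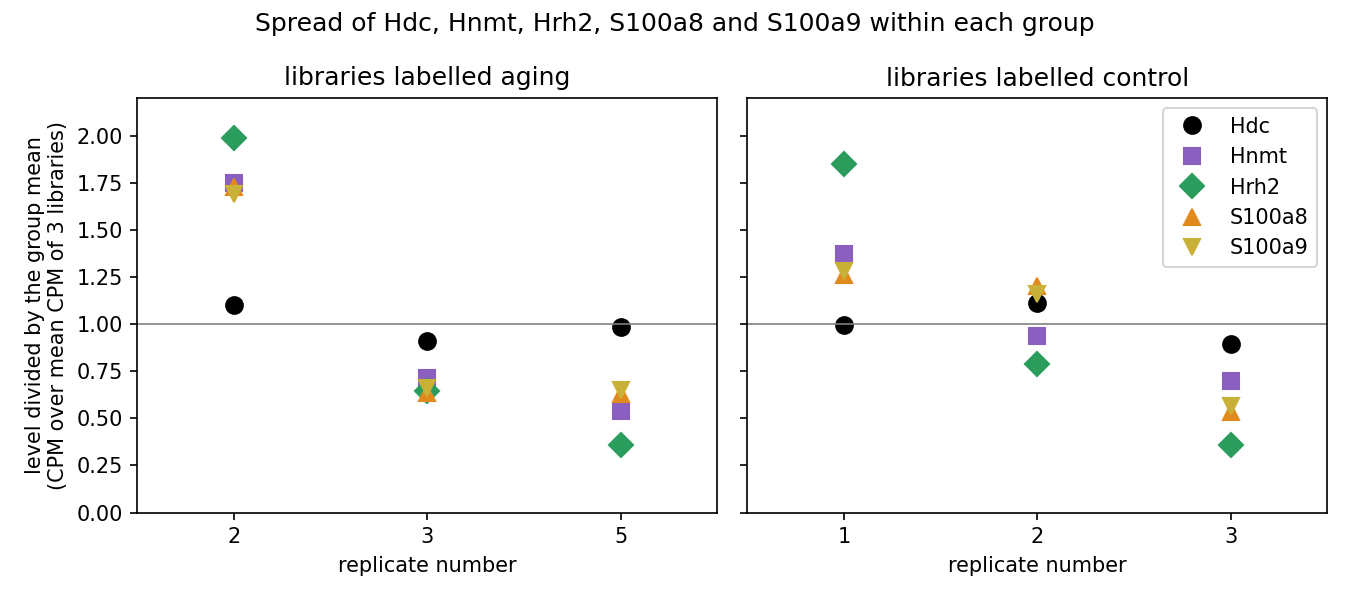
Level of each gene divided by its own group mean (CPM over the mean CPM of 3 libraries), for Hdc, Hnmt, Hrh2, S100a8 and S100a9, in the libraries labelled aging (left) and control (right). Hdc stays near 1 (0.910 to 1.10 in the aging libraries, 0.894 to 1.11 in the control libraries), while S100a8, S100a9, Hnmt and Hrh2 reach 1.69 to 1.99 in aging replicate 2.

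Neutrophil transcripts moved with the groups as well. Of 9 markers of mature neutrophils 8 rose and none fell in edgeR, which called 7.22% of all tested genes higher. Their median log2 fold change was 2.77, against -0.01 over all tested genes. Without S100a8 and S100a9, 6 of 7 rose, with a median of 2.61. The list was chosen with earlier results of these data known. Trem1, an activating receptor, rose by 2.24 ± 0.36 on the log2 scale (SE; edgeR adjusted p = 0.0143), the secreted Retnlg by 2.77 ± 0.47 (0.0166), S100a9 by 2.84 ± 0.50 (0.0181) and the chemokine receptor Cxcr2 by 3.16 ± 0.55 (0.0182); S100a8 rose as well (adjusted p = 0.0188). The call of S100a8, S100a9 and Cxcr2 was lost without control replicate 1, 2 or 3, of Retnlg without control replicate 1 or 2, and of Trem1 without control replicate 2 (edgeR adjusted p between 0.0522 and 0.0778), and the count of markers called was 1, 0 and 2 without control replicates 1, 2 and 3. The summed level of the 9 markers was 4850, 2140 and 1800 CPM in aging replicates 2, 3 and 5, against 577, 542 and 255 CPM in control replicates 1, 2 and 3. This sum varied 2.70-fold among the libraries labelled aging, where Hdc varied 1.21-fold.

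With the mean log2 CPM of these markers as a covariate, the log2 fold change of Hdc was 1.27 ± 0.22, that of Hnmt -0.79 ± 0.62 and that of Hrh2 -2.09 ± 0.74 (SE). Group accounts for 0.814 of the variance of that covariate, so group and covariate are largely confounded in this fit. The covariate left 21 genes called of 13096. The part of neutrophils in the Hdc, Hnmt and Hrh2 levels was not tested.

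Granule genes of neutrophil precursors were measured in a list of 9. Mpo, Elane, Prtn3 and Ctsg, the proteins of primary granules, fell below the filter, with 20, 6, 6 and 3 counts over the libraries labelled aging and 10, 1, 8 and 0 over those labelled control. All 5 tested had log2 fold changes above 0 (median 1.90) and an unadjusted p under 0.05. Of these, 1 passed in edgeR, where 7.22% of all tested genes were called higher, and DESeq2 called 3 (Chil3, Lcn2 and Camp) and limma 1. The chitinase-like Chil3 rose by 1.53 ± 0.34 on the log2 scale (SE; edgeR adjusted p = 0.0298). Leaving out aging replicate 2 or 3, or any 1 of the control replicates, ended that call (edgeR adjusted p of 0.0514 to 0.0795), and without aging replicate 5 all 5 passed (edgeR adjusted p of 0.00753 to 0.0472). The secondary-granule genes Ltf and Ngp did not pass, at 26.3 ± 19.8 CPM in aging and 6.81 ± 3.95 CPM in control libraries and 44.2 ± 35.1 CPM in aging and 13.1 ± 6.88 CPM in control libraries (SD, n = 3 each).

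Defining transcripts of mast cells and basophils, the classical histamine makers, were at or near 0. The mast cell proteases Tpsab1, Tpsb2, Mcpt4 and Mcpt1 and the receptor Mrgprb1 had 0 counts in all 6 libraries, where 3 counts would be 0.169 to 0.189 CPM. Cpa3, the mast cell carboxypeptidase, had 4, 3 and 3 counts in aging replicates 2, 3 and 5 and 2 counts in each library labelled control. The basophil proteases Mcpt8 and Prss34 had 3 and 3 counts over the libraries labelled aging, against 2 and 1 over those labelled control, and the IgE receptor genes Fcer1a and Ms4a2 had 2 and 9 counts over the libraries labelled aging, against 0 and 6 over those labelled control. Only 4 of the 17 markers passed the filter. Kit, Il3ra and Hpgds did not pass the test, and Kit, a growth factor receptor that sinusoidal endothelium also expresses, stood at 612 ± 122 CPM in aging and 701 ± 128 CPM in control libraries; Il3ra stood at 32.6 ± 3.69 CPM in aging and 30.7 ± 2.09 CPM in control libraries (SD, n = 3 each). The chymase Cma1 fell, at 0.798 ± 0.189 CPM in the libraries labelled aging and 2.45 ± 0.866 CPM in those labelled control, with a log2 fold change of -1.61 ± 0.37 (SE; edgeR adjusted p = 0.0319). That call was lost without any 1 of the 6 libraries (edgeR adjusted p between 0.0520 and 0.0955). The markers of mast cells summed to 512 to 750 CPM in the libraries labelled aging and 565 to 808 CPM in those labelled control, nearly all of it Kit; those of basophils summed to 28.9 to 36.1 CPM in aging and 29.4 to 33.2 CPM in control libraries, nearly all of it Il3ra.

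Other genes of histamine handling were taken from lists of transport, further breakdown, remaining receptors, and histidine supply and use. Of these 17 genes 11 were tested and edgeR called 0, against 12.8% of all tested genes, with 4 at an unadjusted p under 0.05; DESeq2 called 3 and limma 0. Their median log2 fold change was -0.08, against -0.01 over all tested genes. Slc18a2, the vesicular transporter that loads histamine into granules, had 14.4 ± 2.39 CPM in the libraries labelled aging and 19.9 ± 4.52 CPM in those labelled control (SD, n = 3 each; log2 fold change -0.47 ± 0.20, SE). Among the other transporters, Slc22a2, Slc22a3 and Slc29a4 were below the filter.

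Among further breakdown genes, Aldh2, an aldehyde dehydrogenase, had 556 ± 31.8 CPM in the libraries labelled aging and 494 ± 2.27 CPM in those labelled control, and the monoamine oxidase Maoa had 5.30 ± 0.547 CPM in aging and 5.61 ± 0.316 CPM in control libraries (SD, n = 3 each). Aoc1, which encodes the secreted diamine oxidase, had 6 counts over each group. The receptor Hrh3 had 0 counts in all 6 libraries. Hrh4, the receptor of blood cells, had 0, 8 and 3 counts in aging replicates 2, 3 and 5 and 3, 0 and 0 in control replicates 1, 2 and 3.

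Genes that supply or compete for histidine did not pass in edgeR. The histidyl-tRNA synthetases Hars and Hars2 stood at 28.7 ± 1.33 CPM in aging and 29.3 ± 1.98 CPM in control libraries and at 23.8 ± 2.88 CPM in aging and 25.2 ± 1.99 CPM in control libraries (SD, n = 3 each). Slc15a4, a lysosomal transporter of histidine and peptides, had 23.1, 22.6 and 18.2 CPM in aging replicates 2, 3 and 5 against 11.6, 14.3 and 16.5 CPM in control replicates 1, 2 and 3, a log2 fold change of 0.59 ± 0.16 (SE; edgeR adjusted p = 0.0525). The groups did not overlap, and its edgeR adjusted p was 0.0278 without aging replicate 5. Hal, histidine ammonia-lyase, had a log2 fold change of -1.27 ± 0.42 and Carns1, carnosine synthase, 0.93 ± 0.33 (SE; edgeR adjusted p = 0.0861 and 0.107). DESeq2 called Slc15a4, Hal and Carns1 (DESeq2 adjusted p = 0.0175, 0.0415 and 0.0476). Of 5 related decarboxylases, which use the same cofactor as Hdc, 2 were tested and 0 called by edgeR, DESeq2 or limma, with 0, 0 and 1 at an unadjusted p under 0.05; Csad stood at 18.4 ± 1.13 CPM in aging and 21.8 ± 2.31 CPM in control libraries and Ddc, which makes dopamine and serotonin, at 0.620 ± 0.261 CPM in aging and 1.05 ± 0.128 CPM in control libraries (SD, n = 3 each).

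Downstream of the H1 receptor, 1 of 12 Gq pathway genes fell and none rose in edgeR, against 5.59% of all tested genes lower and 7.22% higher; DESeq2 called 2 and limma 0. The gene that fell was Itpr3, a calcium release channel, at 41.1 ± 1.78 CPM in the libraries labelled aging and 56.5 ± 6.15 CPM in those labelled control, with a log2 fold change of -0.46 ± 0.10 (SE; edgeR adjusted p = 0.0268). The largest log2 fold change of the list was that of the kinase Prkcd, named after its values were seen, with 66.5 ± 28.1 CPM in aging and 28.8 ± 5.66 CPM in control libraries (SD, n = 3 each) and groups that did not overlap. Its log2 fold change of 1.21 ± 0.32 (SE) did not pass in edgeR (adjusted p = 0.0543), except without aging replicate 5 (edgeR adjusted p = 0.0163; range with single libraries left out 0.0163 to 0.168), and DESeq2 called it. Downstream of the H2 receptor, 1 of 11 Gs pathway genes rose and 1 fell, a share near the 12.8% called among all tested genes (DESeq2 and limma called 2 each): Creb1, the cyclic AMP response factor, had a log2 fold change of 0.35 ± 0.09 and the adenylate cyclase Adcy6 one of -0.58 ± 0.14 (SE; edgeR adjusted p = 0.0427 and 0.0364). The medians were -0.20 for the Gq list and -0.21 for the Gs list, against -0.01 over all tested genes. Log2 fold changes lay below 0 for 9 of 12 Gq genes and 10 of 11 Gs genes. All 8 pan-endothelial markers lay below 0 as well, with a median of -0.15. Itpr3 was lost without any single library but aging replicate 5, Adcy6 without any but control replicate 1 and Creb1 without any of the 6 (edgeR adjusted p between 0.0531 and 0.119).

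Of 5 transcription factors known or proposed to act on Hdc or to act in mast cells, 1 fell in edgeR, against 5.59% of all tested genes; DESeq2 and limma called 1 each. Klf4, described as a repressor of the Hdc promoter in gastric cells, had 187, 138 and 260 CPM in aging replicates 2, 3 and 5, against 418, 400 and 408 CPM in control replicates 1, 2 and 3. The groups did not overlap, and the log2 fold change was -1.07 ± 0.21 (SE; edgeR adjusted p = 0.0244). Leaving out aging replicate 2 or any 1 of the control replicates ended the call of Klf4 (edgeR adjusted p of 0.0573 to 0.0883). Gata2, needed for Hdc in mast cells and basophils, did not pass, at 47.4 ± 5.79 CPM in aging and 54.7 ± 6.87 CPM in control libraries, and Sp1 stood at 201 ± 16.2 CPM in aging and 204 ± 7.62 CPM in control libraries (SD, n = 3 each).

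**Figure D3:**
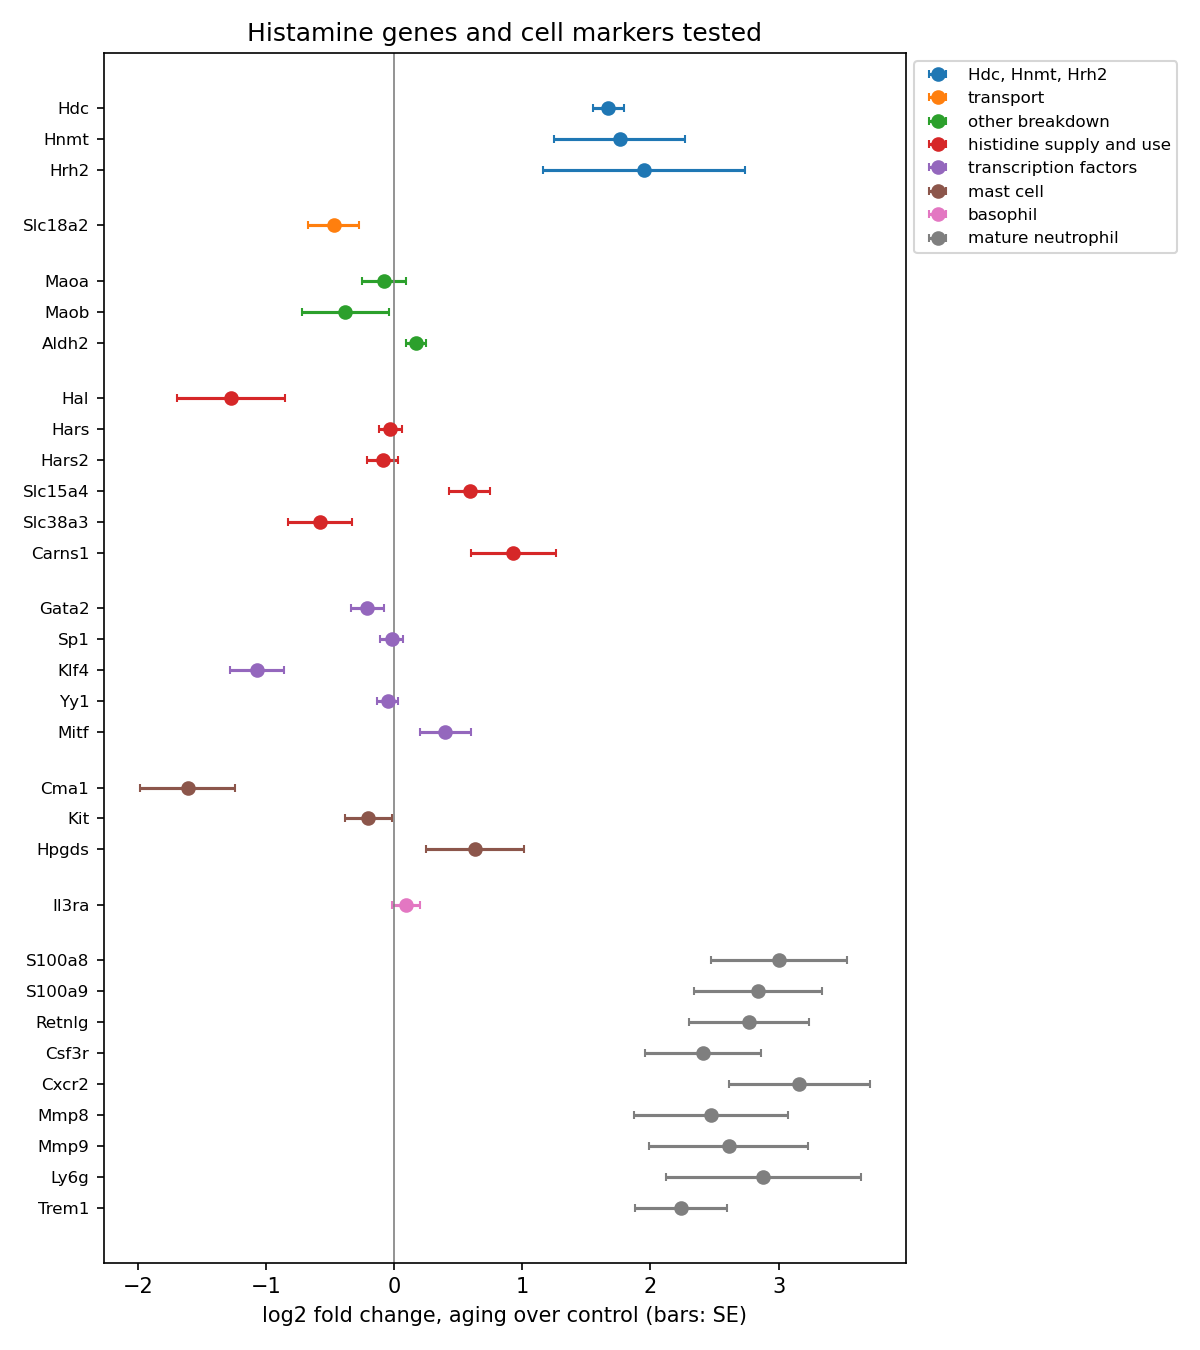
Log2 fold change of the libraries labelled aging over those labelled control with its SE, for tested genes of the histamine lists, the transcription factors, and the markers of mast cells, basophils and mature neutrophils. Hdc has the shortest bar of the 3 members (SE 0.12), the handling genes lie between -1.27 and 0.93, and the neutrophil markers between 2.24 and 3.16.

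The annotated neighbours of Hdc on the chromosome were also read. On one side lie Slc27a2, a fatty acid transporter, and the long noncoding gene Gm26697, and on the other Gabpb1, a transcription factor subunit, and the pseudogene Gm18720. Slc27a2 had 3.52 ± 0.239 CPM in the libraries labelled aging and 4.65 ± 0.846 CPM in those labelled control, and Gabpb1 had 60.4 ± 5.89 CPM in aging and 51.9 ± 3.96 CPM in control libraries (SD, n = 3 each). Neither passed, with log2 fold changes of -0.40 ± 0.21 and 0.22 ± 0.10 (SE; edgeR adjusted p = 0.234 and 0.187), while Hdc between them had 1.67 ± 0.12. The other neighbours, Gm26697 and Gm18720, were not analysed here.

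Likeness of profile was measured as the root mean square difference, over the 6 libraries, of log2 CPM centred on each gene's mean, among 8898 other tested genes with a mean of at least 10 CPM. The libraries are shared by all genes and fall in 2 groups, so closeness is a description. The 6 genes nearest to Hdc were Scnn1a, a sodium channel subunit (0.117), the protease Fam111a (0.123), the pseudokinase Trib1 (0.156), the kinase Plk3 (0.176), Aass, an enzyme of lysine breakdown (0.178), and Il1rap, a subunit of the interleukin-1 receptor (0.189). Scnn1a averaged 19.5 ± 3.81 CPM in the libraries labelled aging and 6.68 ± 0.628 CPM in those labelled control, and Fam111a averaged 96.9 ± 11.3 CPM in aging and 32.9 ± 2.85 CPM in control libraries (SD, n = 3 each). S100a8 and S100a9 lay farther from Hdc, at 0.821 and 0.735, with ranks of 3589 and 1842. The measure also counts the size of the change between the groups. That log2 fold change was 1.67 for Hdc, 3 for S100a8 and 2.84 for S100a9. These ranks therefore do not separate a larger rise from another order of the libraries. Among the other mature neutrophil markers, Trem1 was the nearest to Hdc at 0.483 (rank 311), followed by Csf3r at 0.569 (rank 529). Hnmt lay at 0.498 from Hdc, slightly farther than Trem1, and Hrh2 at 0.877.

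The same measure was applied to Hnmt and Hrh2 after the values had been seen, among 8899 genes. Nearest to Hnmt were Selplg, the selectin ligand PSGL-1 (0.0953), the membrane protein gene Evi2b (0.104), Gcnt1, a glycosyltransferase (0.117), Nfam1, an immune receptor (0.124), Itgam, the integrin chain CD11b (0.135), and B430306N03Rik (0.140). Itgam averaged 136 ± 63.2 CPM in the libraries labelled aging and 46.1 ± 15.7 CPM in those labelled control (SD, n = 3 each). Nearest to Hrh2 were Pfkfb4 (0.328), Chil1 (0.383), the actin regulator Coro1a (0.393), the leukotriene enzyme Alox5 (0.406), Ipcef1 (0.420) and the kinase Fgr (0.439). Hnmt and Hrh2 lay 0.443 apart. The gelatinase Mmp9, the nearest to Hrh2 of the mature neutrophil markers listed above, lay 0.462 from it, at rank 12. S100a8 and S100a9 lay farther from Hrh2, at 0.724 and 0.667 (ranks 189 and 148). From Hnmt they lay at 0.736 and 0.65 (ranks 704 and 471), and Hdc lay at 0.498 (rank 262). The size of the change between the groups enters these distances as well.

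**Figure D4:**
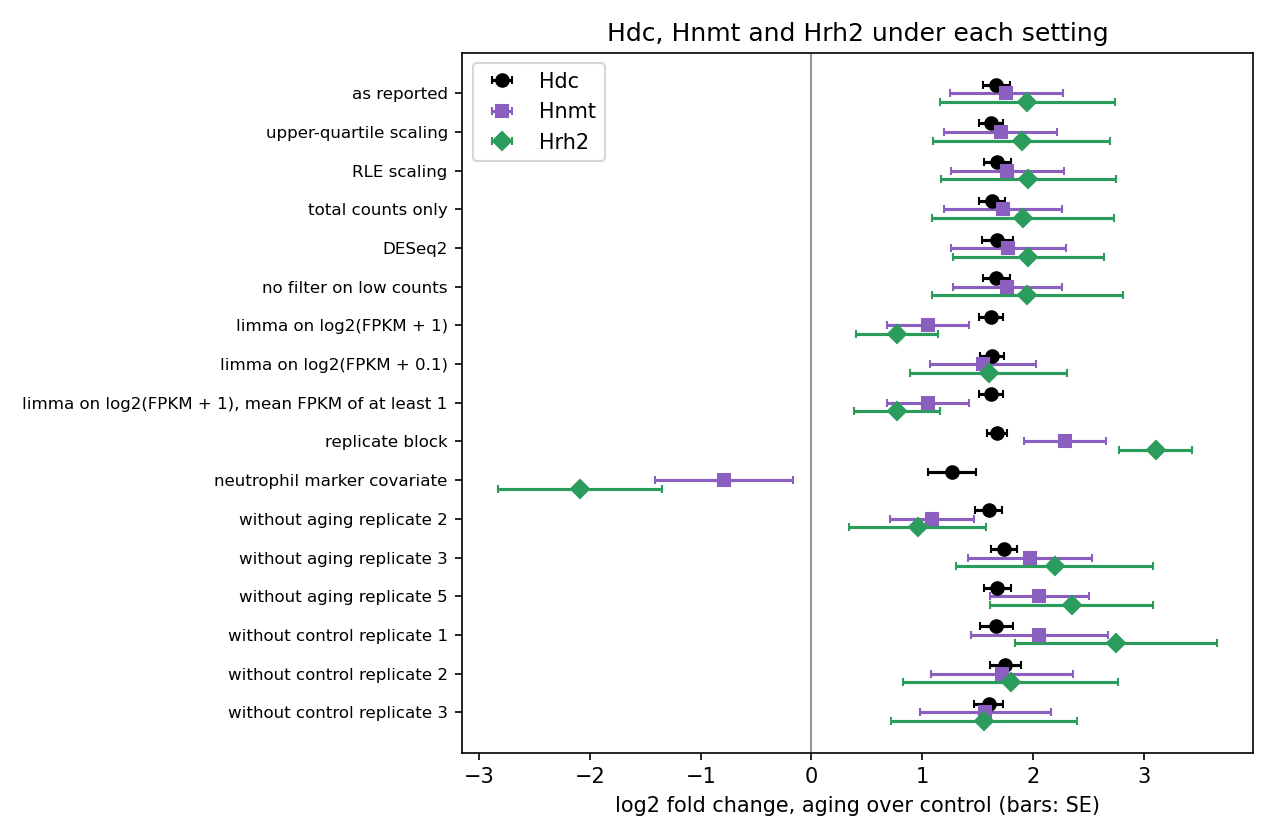
Log2 fold change of Hdc, Hnmt and Hrh2, aging over control, with its SE, as reported and under each alternative setting. Hdc lies between 1.27 and 1.75 throughout, while Hnmt and Hrh2 fall below 0 with the neutrophil marker covariate (-0.79 and -2.09).

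Markers of the remaining cell types were read in the same fit, in which 7.22% of all tested genes were called higher and 5.59% lower. None of 7 Kupffer cell markers passed in edgeR, with 1 at an unadjusted p under 0.05 (DESeq2 called 1, limma 1), and all 7 had log2 fold changes below 0. Cd5l stood at 321 ± 178 CPM in aging and 354 ± 83.0 CPM in control libraries and Clec4f at 308 ± 149 CPM in aging and 414 ± 95.3 CPM in control libraries (SD, n = 3 each). Timd4, named after its values were seen, had 16.8 ± 7.41 CPM in aging and 41.2 ± 7.91 CPM in control libraries (SD, n = 3 each). Its groups did not overlap, and its log2 fold change was -1.29 ± 0.33 (SE, edgeR adjusted p = 0.051). DESeq2 called Timd4, and edgeR did so without aging replicate 2 or 5. Of 5 monocyte markers Ccr2 and Chil3 rose (log2 fold change 1.15 ± 0.26 and 1.53 ± 0.34, SE). Chil3 also stands in the neutrophil granule list above, so its call there and its call here are the same. None of 4 tested platelet markers passed in edgeR, DESeq2 or limma, with 1 at an unadjusted p under 0.05 in each, and Itga2b stood at 4.30 ± 0.730 CPM in aging and 3.96 ± 0.529 CPM in control libraries and Gp1ba at 3.93 ± 0.584 CPM in aging and 4.32 ± 0.147 CPM in control libraries. Of 6 T and NK cell markers, 3 had log2 fold changes above 0 and 3 below, and Cd8a alone passed, rising by 2.17 ± 0.53 (SE; DESeq2 called 2 and limma 0). Klrb1c, an NK cell receptor, had 5.31 ± 1.81 CPM in aging and 15.3 ± 8.91 CPM in control libraries (SD, n = 3 each), with groups that did not overlap and a log2 fold change of -1.52 ± 0.46 (SE; edgeR adjusted p = 0.0745). Of 5 B and plasma cell markers Jchain and Igkc rose by 3.08 ± 0.47 and 2.79 ± 0.64 on the log2 scale (SE). Of 6 stellate cell and fibroblast markers 3 fell: Reln had -1.80 ± 0.19, Dcn -0.79 ± 0.15 and Lrat -1.46 ± 0.33 on the log2 scale (SE). None of 6 hepatocyte and 4 cholangiocyte markers passed in edgeR, DESeq2 or limma, with 0 at an unadjusted p under 0.05 in each; Alb stood at 520 ± 43.8 CPM in aging and 509 ± 53.3 CPM in control libraries, Apoa1 at 40.9 ± 2.63 CPM in aging and 37.6 ± 3.24 CPM in control libraries, Epcam at 10.6 ± 1.46 CPM in aging and 13.7 ± 4.38 CPM in control libraries and Krt19 at 6.46 ± 1.84 CPM in aging and 8.11 ± 3.04 CPM in control libraries (SD, n = 3 each). Of these calls only Reln held without each single library; leaving out aging replicate 3, control replicate 2 or control replicate 3 ended those of Ccr2, Chil3, Cd8a, Igkc and Lrat, as did aging replicate 2 for these but Cd8a and control replicate 1 for these but Ccr2. Jchain was lost without control replicate 2 or 3 and Dcn without control replicate 1 or 2 (edgeR adjusted p for all of these from 0.0514 to 0.135).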

How the data were processed

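Poly(A)-selected RNA of sinusoidal endothelial cells was sequenced in 6 libraries. The submitters' processing notes name StringTie 1.3.1, HISAT2, RSEM, Bowtie2 and fastp 0.18.0 without their roles. Genome build, annotation and strandedness: not given in the sources used here. Per the file headers, the authors deposited a count and an FPKM column for each library. The deposited counts are whole numbers, and whether estimates were rounded is not stated. The table also carries the authors' group means, treated here as a deposited score, and the authors' own comparison (deposited log2 fold change, p-value and FDR), of which means and log2 fold changes are quoted as theirs. Every per-library column was used.

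edgeR 4.0.16 (R 4.3.3) tested the counts after filterByExpr (minimum count 10, minimum total 15) and TMM scaling, with a robust quasi-likelihood fit on group, Benjamini-Hochberg adjustment over 13096 genes and a threshold of 0.05. The SE is the absolute log2 fold change over the square root of F. Log2 CPM used a prior count of 2. DESeq2 1.42.0 and limma 3.58.1 on log2(FPKM + 1) were alternatives, with other scalings, filters, a replicate block, a neutrophil covariate and each library left out. The fits were tested on simulated data. No pair of libraries within a group looked like a repeat deposit: chi-square over its degrees of freedom was at least 8.40. Named genes are the 4 members, S100a8 and S100a9, up to 4 called genes per list by adjusted p or else the 2 most abundant, the neighbours of Hdc and the 6 nearest profiles; genes named beyond these were chosen after their values were seen. Members and lists were chosen with earlier results of these data known. The values of 1 gene of the histamine handling list are not reported here.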

Additional observations from a re-analysis of the deposited data

How the results depend on the processing

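The log2 fold change of Hdc, 1.67 as reported, stayed within 1 within-group SD (0.15) under every setting but the neutrophil marker covariate, which gave 1.27; leaving out single libraries gave 1.60 to 1.75. Hnmt gave 1.05 with limma on log2(FPKM + 1), with or without the minimum mean FPKM of 1, -0.79 with the covariate, and 1.09 to 2.06 with single libraries left out. Hrh2 gave 0.77 with limma on log2(FPKM + 1), with or without that minimum, 3.11 with the replicate block, -2.09 with the covariate, and 0.96 to 2.75 with single libraries left out. The cause of these shifts was not tested, except that a pseudocount of 1 shrinks the change of low genes by construction. Hrh1 could be fitted only with no filter on low counts (log2 fold change 1.18 ± 0.78, SE). The count of changed genes, 1678, was 21 with the covariate and 268 to 2121 with single libraries left out (664, 268 and 458 without control replicates 1, 2 and 3, and 860 without aging replicate 3), and the share of calls that were higher, 56.4%, was 45.9% with upper-quartile scaling and 46.8% with total counts only. Histamine handling genes called, 0, were 3 with DESeq2 (Slc15a4, Carns1 and Hal), 1 with no filter on low counts (Slc15a4), 2 with the replicate block (Slc18a2 and Carns1) and 0 to 1 with single libraries left out. Mast cell and basophil markers called, 1, were 0 with the replicate block, 0 with the covariate and 0 without any single library. Mature neutrophil markers called, 8, were 4 with no filter on low counts, 0 with the covariate and 0 to 9 with single libraries left out. Only numbers 2 and 3 occur in both groups. Deviations of same-numbered libraries from their group means had correlations of -0.06 and -0.04, and those of differently numbered libraries ran from -0.25 to 0.24. With 3 libraries a group, these values cannot settle whether same-numbered libraries were paired. The replicate block, which leaves 1 residual degree of freedom, called 1698 genes. Depth limits Hrh1 and the mast cell, basophil and primary-granule genes, which have few counts or none.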

Other observations

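The group means in the authors' deposited table do not follow from the library columns beside them. For Hdc the authors' deposited table gives a mean of 186.634 FPKM for aging, below the 3 library values, which run from 210.11 to 253.9 FPKM, and 73.8 FPKM for ct. Its log2 fold change for Hdc is 1.34 in the authors' deposited table, while the ratio of the plain means of the 3 libraries per group is 1.63 on the log2 scale. For Hnmt, Hrh2 and Hrh1 the authors' deposited table gives log2 fold changes of 2.14, 2.03 and 0.53, against 1.87, 1.89 and 1.17 from the plain means. Among 11435 genes with a mean FPKM above 1, the authors' mean lay outside the range of the 3 library values, by more than 0.01 FPKM, for 2859 genes (25.0%) in the aging columns and 2166 genes (18.9%) in the ct columns. How the deposited means were made is not given in the sources used here.

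Gad1, the glutamate decarboxylase that makes GABA and a relative of Hdc, fell below the filter but had 10, 4 and 8 counts in aging replicates 2, 3 and 5, against 2, 3 and 1 in control replicates 1, 2 and 3. The groups did not overlap in CPM, which held for 19.2% of all tested genes as higher and 38.0% in either direction. The gap lies between 4 counts (0.236 CPM) in aging replicate 3 and 3 counts (0.169 CPM) in control replicate 2. Gad1 was picked after its values were seen and was not tested.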
